A study of Homo sapiens with 6 samples.

Results

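The transcripts of 8 genes of translation elongation, EEF1A1, EEF1A2, EEF1B2, EEF1D, EEF1E1, EEF1G, EEF2 and EEF2K, were measured in HEK293 WT and HEK293 MUL1(-/-) cells. HEK293 is an immortalised human embryonic kidney cell line, and MUL1 encodes an E3 ligase of the outer mitochondrial membrane. The MUL1(-/-) cells were made from HEK293 with CRISPR-Cas9. Both genotypes were grown in DMEM with fetal calf serum, with no further treatment given in the labels. RNA was sequenced in 3 libraries of each genotype. Which knockout clone gave the RNA, and whether the libraries of a genotype came from separate cultures, is not given in the sources used here, so p-values measure only the spread between these samples, which may be technical. The 8 genes were taken by name from 57377 genes with counts, and all 8 were among the 25377 genes with enough counts to be tested. They were selected on the CPM of the same 6 libraries, in which EEF1A2 was already known to be far lower in MUL1(-/-). Their differences between the genotypes are therefore given as descriptions, with a standard error but no test. Levels are given as CPM, the counts of a gene (its exon bins summed) per 1000000 counts of the library after TMM scaling. In bulk RNA, fewer cells that carry a transcript and less of it per cell cannot be told apart.

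The MUL1 transcript, the target of the knockout, was at 14.8, 14.5 and 18.2 CPM in WT and 17.9, 15.9 and 18.4 CPM in the libraries labelled MUL1(-/-), so the genotypes overlapped (log2 fold change 0.14, SE 0.10, edgeR adjusted p = 0.325). Its level thus does not check the labels, and every direction given here rests on them, MUL1(-/-) standing for the libraries labelled so. Counts over genes, with the bins summed, were 132826900 to 149294514 in WT and 127442585 to 128101732 in MUL1(-/-), and the genotypes separated on the first principal component, which held 68.3% of the variance. The cells expressed the epithelial genes KRT8, KRT18 and EPCAM and the kidney gene SALL1 in every library, while the kidney gene PAX8 was nearly absent, at 0.0626 CPM in WT.

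During elongation, the GTP-binding protein eEF1A brings aminoacyl-tRNA to the ribosome. It is encoded by a pair of paralogous genes, of which EEF1A1 is used in nearly all tissues and EEF1A2 is best known from neurons, heart and skeletal muscle, where it takes over after birth. The eEF1B complex (EEF1B2, EEF1D and EEF1G) exchanges GDP for GTP on eEF1A. EEF1E1 encodes a scaffold protein of the multi-aminoacyl-tRNA synthetase complex, eEF2 moves the ribosome along the mRNA by a codon, and the kinase eEF2K phosphorylates eEF2 and so slows elongation.

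The eEF1A paralogs are alike enough that reads could be assigned to the wrong gene, so their sequences were compared. In the GENCODE 29 transcripts, the coding sequences of EEF1A1 (1386 bases) and EEF1A2 (1389 bases) were identical at 1083 of 1386 aligned bases (78.1%), and the longest stretch without a difference was 20 bases. Exon 7 of EEF1A2, a coding exon, has the same length, 235 bases, as an exon bin of EEF1A1 that aligns with it. The match was sought among bins, and EEF1A1 is divided into many, so other exons of equal length may have been missed. The pair is shown here because, of the measures used, it gives the fairest comparison of the levels of the paralogs. Each copy is a single run of the same length. The coordinates are those of GRCh38, the sequences are written 5′ to 3′ on the minus strand, from which both genes are read, and capitals mark the 50 positions where the paralogs differ.
EEF1A1, chr6:73518030-73518264: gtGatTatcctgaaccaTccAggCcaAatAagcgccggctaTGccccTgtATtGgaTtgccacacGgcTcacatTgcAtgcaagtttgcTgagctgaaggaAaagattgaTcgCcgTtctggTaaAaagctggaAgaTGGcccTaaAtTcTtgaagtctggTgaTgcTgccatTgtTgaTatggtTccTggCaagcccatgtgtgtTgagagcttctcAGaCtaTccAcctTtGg
EEF1A2, chr20:63488918-63489152: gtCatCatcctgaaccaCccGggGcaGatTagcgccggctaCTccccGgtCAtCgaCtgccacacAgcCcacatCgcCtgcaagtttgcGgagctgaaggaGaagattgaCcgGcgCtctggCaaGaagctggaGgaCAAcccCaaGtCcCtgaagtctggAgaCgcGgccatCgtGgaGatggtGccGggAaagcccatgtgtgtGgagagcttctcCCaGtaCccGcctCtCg
The differences are spread along the exon, and the longest identical run is 14 bases.

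EEF1A2 (ENSG00000101210, chromosome 20, 63488012 to 63499322, minus strand) was at 144.6, 131.2 and 130.4 CPM in WT replicates 1 to 3 and at 22.2, 20.9 and 20.8 CPM in the MUL1(-/-) replicates. All 3 MUL1(-/-) libraries were far below all 3 WT libraries. The WT mean was 135 ± 7.98 CPM and the MUL1(-/-) mean 21.3 ± 0.802 CPM (SD, n = 3), a 6.36-fold lower level. The log2 fold change was -2.67 (SE 0.07), and it lay between -2.70 and -2.60 under 14 other ways of processing the counts. Ordered by log2 fold change from the lowest, EEF1A2 was number 112 of the 25377 tested genes, and number 43 of the 13092 protein-coding ones that averaged 1 CPM or more. The values rest on 17167 to 19395 summed counts in each WT library and 2695 to 2941 in each MUL1(-/-) library. The transcript was thus lower but still detected in every MUL1(-/-) library.

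The lower level ran along the whole EEF1A2 gene. GENCODE 29 gives its main transcript 8 exons, of which exon 1 is untranslated and exons 2 to 8 hold coding sequence. Every exon was lower in MUL1(-/-), by 5.73-fold (exon 8) to 6.56-fold (exon 4), and in every exon the genotypes did not overlap. In the untranslated exon 1, which marks the 5′ end of the transcript, WT libraries held 5.19, 4.60 and 4.72 CPM and MUL1(-/-) libraries 0.982, 0.795 and 0.702 CPM. In exon 4 they held 30.9, 28.7 and 28.7 CPM against 4.62, 4.55 and 4.29 CPM. Exon 4 took 21.7% ± 0.325 of the gene's counts in WT and 21.1% ± 0.630 in MUL1(-/-), and exon 1 took 3.57% ± 0.0574 and 3.87% ± 0.524 (SD, n = 3). The exons therefore kept nearly the same shares of a smaller total.

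EEF1A1 (ENSG00000156508, chromosome 6, 73515750 to 73523797, minus strand), the widely used paralog, was at 13592, 12906 and 11896 CPM in WT and at 10460, 10934 and 9423 CPM in MUL1(-/-). Every MUL1(-/-) library was below every WT library, so no rise of EEF1A1 accompanied the lower EEF1A2. The means were 12798 ± 853 and 10272 ± 772 CPM (SD, n = 3), with a log2 fold change of -0.32 (SE 0.07). In these cells the name of a switch between the paralogs was not borne out by the counts, because EEF1A1 gave nearly all of the eEF1A transcripts in both genotypes and both paralogs were lower in MUL1(-/-).

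In the matched exon, EEF1A2 was at 21.8, 19.2 and 18.9 CPM in WT and at 3.11, 3.04 and 3.24 CPM in MUL1(-/-), from 2489 to 2891 and 398 to 420 counts. EEF1A1 was at 1246 ± 87.9 CPM in WT and 1016 ± 65.1 CPM in MUL1(-/-) in the same exon. EEF1A2 made up 1.61%, 1.50% and 1.61% of both paralogs in WT and 0.298%, 0.285% and 0.343% in MUL1(-/-), with means of 1.57% ± 0.0608 and 0.309% ± 0.0305 (SD, n = 3). Put the other way, EEF1A1 was 61.1 to 65.5 times as high as EEF1A2 in WT and 291 to 350 times as high in MUL1(-/-). The level of the share depended on how counts were related to length. From summed bins it was 1.05% ± 0.0390 in WT and 0.208% ± 0.0154 in MUL1(-/-), and per kb of exon length, the measure that gave EEF1A2 most weight, 3.04% ± 0.111 and 0.613% ± 0.0452. EEF1A1 is divided into many short bins, and a read appears to be counted in each bin it touches, which would raise its sum. The ratio of the WT share to the MUL1(-/-) share moved little, from 4.97 to 5.25 over 6 measures, and the lowest share of EEF1A1 in any library under any of these measures was 96.9%.

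EEF1A1 has many processed copies in the genome, and reads of the gene can be counted in them. GENCODE 29 holds 75 other genes named after the 8, of which 49 are EEF1A1 pseudogenes, and 30 of the 75 had at most 3 counts in every library. EEF1A1P5, on chromosome 9, was the most counted, at 28.0 ± 1.89 CPM in WT and 22.6 ± 1.97 CPM in MUL1(-/-), with a log2 fold change of -0.31 (SE 0.09). EEF1A1P6 was at 3.92 ± 0.260 and 3.08 ± 0.263 CPM, a log2 fold change of -0.35 (SE 0.12). These are close to the -0.32 of EEF1A1 itself, and reads of a copy and of its parent may not be separable in counts of this kind. Of all counts of EEF1A1 and its pseudogenes, the pseudogenes held 0.307% to 0.344% in WT and 0.323% to 0.342% in MUL1(-/-), so few counts were placed in them. How reads that match both the gene and a copy were counted is not given. If such reads were left out, they are missing from both, so this share does not show how the copies bear on the level of EEF1A1.

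Of the genes of the exchange complex, EEF1G (ENSG00000254772, chromosome 11, 62559601 to 62574086, minus strand), whose product holds the complex together, differed most. Its levels were 2312, 2178 and 1937 CPM in WT and 1590, 1597 and 1546 CPM in MUL1(-/-). The MUL1(-/-) libraries lay close together and below all WT libraries, with means of 2142 ± 190 and 1578 ± 27.5 CPM (SD, n = 3) and a log2 fold change of -0.44 (SE 0.07). EEF1B2 (ENSG00000114942, chromosome 2, 206159585 to 206162928, plus strand), which encodes an exchange factor subunit, was at 686, 675 and 717 CPM in WT and 602, 595 and 557 CPM in MUL1(-/-), a log2 fold change of -0.24 (SE 0.06) without overlap.

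EEF1D (ENSG00000104529, chromosome 8, 143579697 to 143599541, minus strand), the other subunit with exchange activity, was at 873, 819 and 800 CPM in WT and 713, 680 and 673 CPM in MUL1(-/-). Here too the genotypes did not overlap, and the log2 fold change was -0.27 (SE 0.06). Of the EEF1D counts, 62.4% lay in bins over which GENCODE 29 places an exon of another gene on the opposite strand, and the counting did not separate strands. EEF1D also makes a longer protein through an additional coding exon of 1091 bases. Per base, that exon held 4.62% ± 0.152 of the counts of the other coding exons in WT and 4.57% ± 0.801 in MUL1(-/-) (SD, n = 3), and the genotypes overlapped. The longer form was thus a small part of EEF1D in both genotypes.

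EEF1E1 (ENSG00000124802, chromosome 6, 8073360 to 8102578, minus strand), the synthetase scaffold, was at 84.6, 81.2 and 91.3 CPM in WT and 73.2, 74.9 and 73.6 CPM in MUL1(-/-). The MUL1(-/-) libraries were below the WT libraries by a log2 fold change of -0.21 (SE 0.07).

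EEF2 (ENSG00000167658, chromosome 19, 3976056 to 3985469, minus strand), the translocation factor, was the one gene of the 8 that was not lower by its mean. It was at 3949, 3536 and 2803 CPM in WT and 3568, 3540 and 3448 CPM in MUL1(-/-), so that the MUL1(-/-) libraries fell inside the range of the WT libraries. The log2 fold change was 0.04 (SE 0.09), and it turned to -0.09 without WT replicate 3, the lowest library. EEF2K (ENSG00000103319, chromosome 16, 22206282 to 22288732, plus strand), the kinase that acts on eEF2, was at 31.7, 31.8 and 24.5 CPM in WT and 26.3, 26.4 and 22.9 CPM in MUL1(-/-). The genotypes overlapped through the same WT replicate 3, and the log2 fold change was -0.22 (SE 0.10). Without that library it was -0.34 (SE 0.08), and the genotypes did not overlap. Among WT libraries, replicate 3 was the lowest for EEF1A1, EEF1A2, EEF1D, EEF1G, EEF2 and EEF2K and the highest for EEF1B2 and EEF1E1.

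A gene was called where edgeR's quasi-likelihood test gave it an adjusted p below 0.05. By that call 6 of the 8 genes were lower and 0 higher, where 37.6% of all tested genes were called, 18.8% in each direction. By |log2 fold change| above 1 as well, 1 of the 8, EEF1A2, was called lower, where 8.09% of all tested genes were called, 4.21% higher and 3.87% lower. The genotypes did not overlap for 6 of the 8, where 48.6% of all tested genes did not overlap (24.4% lower in MUL1(-/-)). The median log2 fold change was -0.26 over the 8 genes and -0.01 over all tested genes. The choice of the genes used this contrast, so nothing is read from these counts.

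Levels of different genes were set side by side from exon bins of 90 to 160 bases, taking the median bin of each gene. The order described first is by this measure alone. In WT the order was EEF1A1 (717 ± 49.8 CPM in such a bin), EEF1G (214 ± 20.3), EEF2 (166 ± 29.6), EEF1B2 (67.6 ± 1.21), EEF1D (24.7 ± 1.54), EEF1A2 (14.0 ± 1.07), EEF1E1 (13.6 ± 0.984) and EEF2K (0.903 ± 0.183; SD, n = 3). EEF1A2 and EEF1E1 did not differ beyond their spread in WT, and the lowest EEF1G library, at 192 CPM, was close to the highest EEF2 library, at 191 CPM. In MUL1(-/-) both pairs were apart. EEF2, at 171 ± 4.46 CPM, was above EEF1G, at 159 ± 1.84 CPM, without overlap, and EEF1A2, at 2.13 ± 0.192 CPM, was below EEF1E1, at 11.7 ± 0.262 CPM. EEF1D and EEF1A2 had a single bin of this length each. With all bins summed, EEF1D, at 831 ± 37.9 CPM in WT, was above EEF1B2, at 693 ± 21.6 CPM. EEF1D is divided into 116 bins and EEF1B2 into 34, which would raise the sum of EEF1D more if a read is counted in each bin it touches. The order of EEF1D and EEF1B2 is therefore not settled by these counts. Summed bins also placed EEF2, at 3429 ± 580 CPM in WT, above EEF1G, at 2142 ± 190 CPM. They placed EEF1A2, at 135 ± 7.98 CPM in WT, above EEF1E1, at 85.7 ± 5.16 CPM. The WT order within these pairs thus depends on the measure as well, while in MUL1(-/-) both measures gave the same order.

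Many genes of the translation machinery carry a run of pyrimidines at the start of their transcripts, the 5′ terminal oligopyrimidine tract, through which growth signals control their translation. To show which of the genes have such a start, windows of 10 bases before and 20 bases from the RefSeq start (GRCh38.p14) were read on the gene's strand. Capitals mark a C within the first 3 bases of the transcript followed by at least 4 more C or T, and lower case alone means that no such run was found in this window.
EEF1A1, chr6:73521013-73521042 (-): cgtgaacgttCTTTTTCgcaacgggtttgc
EEF1B2, chr2:206159599-206159628 (+): aagtggccccagcctcgaggccgggcgtct
EEF1B2, chr2:206159885-206159914 (+): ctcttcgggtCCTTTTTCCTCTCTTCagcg
EEF1G, chr11:62573872-62573901 (-): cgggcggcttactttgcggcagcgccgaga
EEF1E1, chr6:8102529-8102558 (-): tgcaggtctcgcgtctgccaggagctacgg
EEF2, chr19:3985444-3985473 (-): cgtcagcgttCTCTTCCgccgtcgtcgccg
EEF2K, chr16:22206268-22206297 (+): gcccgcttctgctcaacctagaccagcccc
The run was present in 3 of the 7 windows of 6 genes, for EEF1A1, EEF2 and one of the EEF1B2 starts, and in 8.81% of all 35116 windows in the RefSeq table. A match describes letters only. Of the genes with a run, EEF1A1 and EEF1B2 were lower in MUL1(-/-) without overlap and EEF2 overlapped. EEF1G and EEF1E1, without a run in their windows, were lower without overlap as well. The starts of EEF1A2 and EEF1D were not analysed here.

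Other genes of translation were compared from lists made by function (edgeR's quasi-likelihood test, Benjamini-Hochberg adjustment over all tested genes). The lists were made with earlier results of these libraries known, so their counts are not independent evidence and are set beside the 37.6% called among all tested genes. Over 6 lists, 23 of 100 tested genes were higher in MUL1(-/-) and 24 were lower, together 47.0% beside 37.6% of all tested genes. When only genes with at least 1 CPM in 3 samples were fitted, 7981 of 16131 genes were called, and 49 listed genes. The 37.6% thus includes many weakly counted genes, and a share above it is not read as a trait of any list. The median log2 fold change was 0.01, the largest change in either direction was 0.83, and 0 genes passed |log2 fold change| above 1. This count of 0, and each later one for a list or for neighbours, came from edgeR and was also 0 at an unadjusted p under 0.05 and by DESeq2's adjusted p. No listed gene of translation therefore came near the -2.67 of EEF1A2.

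Of 11 further factors of elongation, termination and ribosome rescue, 4 rose, 1 fell and the others did not pass the test (45.5% called, beside 37.6% of all genes). EIF5A, the factor that relieves ribosomes stalled at proline runs, rose from 924 ± 30.9 to 1214 ± 17.5 CPM (log2 fold change 0.39, adjusted p = 1.10e-04). EEFSEC, which delivers the selenocysteine tRNA, rose by a log2 fold change of 0.64 (adjusted p = 5.74e-05), the rescue factor PELO by 0.40 (adjusted p = 5.92e-04) and the release factor GSPT2 by 0.56 (adjusted p = 1.62e-03). EIF5A2, the paralog of EIF5A, was at 12.4 ± 0.525 CPM in WT and 13.4 ± 1.18 CPM in MUL1(-/-) and did not pass the test (adjusted p = 0.410).

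Of 14 tested enzymes that modify elongation factors, 4 rose and 3 fell (50.0% called, beside 37.6% of all genes). In the diphthamide pathway, which modifies a histidine of eEF2, genes were called in both directions. DPH1 rose by a log2 fold change of 0.62 (adjusted p = 1.20e-04), while DPH5 and DPH6 fell by 0.41 and 0.57 (adjusted p = 6.64e-04 and 1.13e-03). DOHH, which completes hypusine on eIF5A, rose by 0.78 (adjusted p = 8.38e-05). Of 10 genes of mitochondrial translation, from initiation to termination, 3 rose and 1 fell (40.0% called, beside 37.6% of all genes). GFM1, a mitochondrial elongation factor G, rose from 62.4 ± 3.87 to 100 ± 6.70 CPM (adjusted p = 5.88e-06). Of the others called there, MTRF1L rose by 0.42, MTRF1 rose by 0.22 and MTIF2, an initiation factor, fell by 0.22.

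In the multi-aminoacyl-tRNA synthetase complex, to which EEF1E1 belongs, 4 of 11 tested genes fell and 0 rose, with a median log2 fold change of -0.15. QARS1 and LARS1, the glutaminyl and leucyl enzymes, fell by 0.53 and 0.41, AIMP1, another scaffold, fell by 0.40, and EPRS1 fell by 0.27 (adjusted p = 6.07e-05, 6.25e-04, 5.28e-04 and 0.0142). The share called, 36.4%, was near the 37.6% of all genes. Of 40 genes of initiation and its control, 7 rose and 12 fell (47.5% called, beside 37.6% of all genes). EIF4B, a helicase cofactor, fell by 0.72 (adjusted p = 5.10e-05) and EIF2S2 fell by 0.55 (adjusted p = 1.67e-05), while the scaffold EIF4G1 rose by 0.63 (adjusted p = 2.47e-06) and EIF1AX rose by 0.69 (adjusted p = 4.64e-06).

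Of 14 genes that act on eEF2K or remove its mark, 5 rose and 3 fell (57.1% called, beside 37.6% of all genes). CALM3, one of the calmodulin genes whose product activates eEF2K, rose from 368 ± 22.8 to 653 ± 41.6 CPM (log2 fold change 0.83, adjusted p = 5.91e-07). MTOR, whose pathway restrains eEF2K, fell by 0.64 (adjusted p = 3.11e-06), and RPS6KA1, a kinase that inhibits it, fell by 0.83 (adjusted p = 1.62e-06). Other genes of the restraining mTOR pathway rose, RPTOR by 0.29, RPS6KB1 by 0.22 and RPS6KB2 by 0.36 (adjusted p = 9.58e-03, 0.0207 and 1.46e-03), so the called genes of that pathway had no common direction. PPP2CB, a catalytic subunit of the phosphatase PP2A, rose by 0.48 (adjusted p = 1.12e-04). These are transcript levels, and the phosphorylation of eEF2 was not measured in these libraries.

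**Figure D1:**
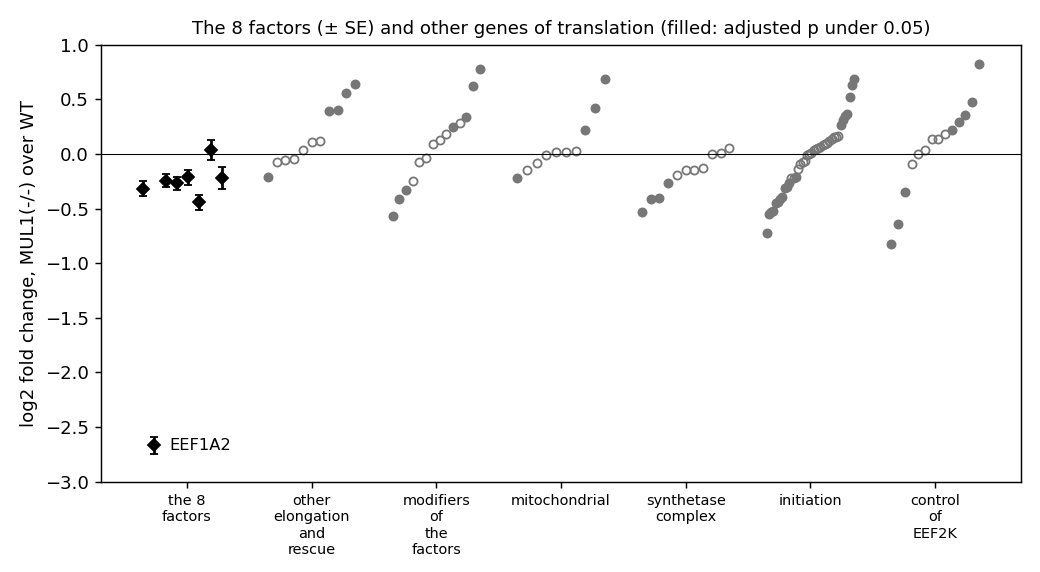
Log2 fold change of MUL1(-/-) over WT (y axis) for the 8 genes (black diamonds with SE, in the order EEF1A1, EEF1A2, EEF1B2, EEF1D, EEF1E1, EEF1G, EEF2, EEF2K) and for 6 lists of other genes of translation (circles, filled where the adjusted p was under 0.05). EEF1A2, at -2.67, lies far below all others, which stay within 0.83 of 0.

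EEF1A2 lies near the end of the long arm of chromosome 20, and the genes around it were mostly lower too. Of the 10 tested protein-coding genes on each side, 13 of 20 fell and 0 rose (65.0% called, beside 37.6% of all tested genes), with a median log2 fold change of -0.36. PPDPF, next to EEF1A2 on the side of higher coordinates, fell from 110 ± 13.6 to 75.5 ± 4.39 CPM (log2 fold change -0.55, SE 0.09, adjusted p = 1.66e-04). The collagen gene COL9A3 (-1.11), the acetylcholine receptor gene CHRNA4 (-1.06) and STMN3 (-1.25), which encodes a microtubule-binding stathmin, fell by more than 1 on the log2 scale. A further 8 called neighbours, TCFL5, DIDO1, GID8, YTHDF1, ARFGAP1, HELZ2, RTEL1 and RTEL1-TNFRSF6B, had log2 fold changes from -0.78 to -0.30. The last is a readthrough gene that shares exons with RTEL1. None of the 20 neighbours was as low as EEF1A2, which lay 2.31 below their median.

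The lower levels were not limited to the neighbours. Protein-coding genes of chromosome 20 that averaged 1 CPM or more were counted, EEF1A2 left out. Of these, 209 of 260 that start at or beyond 20 Mb fell and 5 rose, with a median log2 fold change of -0.44. Of 87 that start before 20 Mb, 7 fell and 23 rose, with a median of 0.13. Over the whole genome, in the separate fit on genes with at least 1 CPM in 3 samples, 3947 of 16131 fell and 4034 rose. That set holds genes of every type, not only protein-coding ones. Every step of 5 Mb from 20 Mb on had a median between -0.53 and -0.37. EEF2 also lay among genes that moved together, in the opposite direction. Of its 20 neighbours on chromosome 19, 16 rose and 0 fell, beside 18.8% of all tested genes called in each direction. Their median was 0.66, and EEF2, at 0.04, lay 0.62 below it. The neighbours of the other 6 genes had medians from -0.11 to 0.08. The part of position in the levels of EEF1A2 and EEF2 was not tested.

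The genes whose pattern over the 6 libraries was most like that of EEF1A2 were found among 13091 protein-coding genes that averaged 1 CPM or more, by the root mean square difference of log2 CPM centred on each gene's mean. The closest was SPINT2 (0.100), a serine protease inhibitor, which was at 193 ± 12.2 CPM in WT and 32.1 ± 3.00 CPM in MUL1(-/-). SYT6 (0.126), DPYSL4 (0.128), ECEL1 (0.135) and TMEFF2 (0.137) followed, with WT means from 6.35 to 10.1 CPM and MUL1(-/-) means from 1.14 to 1.67 CPM. None of the 5 lies on chromosome 20. A high likeness was bound to pick genes with a similar difference between the genotypes.

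EEF1A2 is known from neurons and striated muscle. Called markers of neurons moved in both directions, and those of muscle rose. Of 9 tested neuronal markers, 4 rose and 2 fell (66.7% called, beside 37.6% of all genes). SYT1 rose by a log2 fold change of 1.27, NEFM by 1.06 and MAP2 by 0.98, while RBFOX3 fell by 1.12 (adjusted p = 6.28e-08, 2.40e-05, 1.57e-04 and 1.04e-05). Their 12 markers summed to 121 to 168 CPM in WT and 121 to 156 CPM in MUL1(-/-), most of it NEFL, and the neuroblast marker DCX was at or under 3 counts in every library. Of 12 tested markers of skeletal and cardiac muscle, 5 rose and 0 fell (41.7% called, near the 37.6% of all genes), among them ACTA1 by 1.59, RYR1 by 0.75 and TTN by 0.51 (adjusted p = 1.63e-05, 4.94e-03 and 8.72e-04), with a sum over 16 markers of 14.8 to 18.1 and 24.1 to 26.3 CPM. Most of that sum was TTN, at 12.2 ± 1.54 CPM in WT and 17.4 ± 0.194 CPM in MUL1(-/-).

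Of 8 markers of embryonic kidney and epithelium, 3 fell and 0 rose (37.5% called, near the 37.6% of all genes). PAX2 fell by 1.80, KRT8 by 0.93 and LHX1 by 0.55 (adjusted p = 1.89e-06, 2.37e-07 and 8.83e-03), and the sum was 462 to 507 CPM in WT and 315 to 345 CPM in MUL1(-/-). Most of the difference in the sum was KRT8, at 310 ± 17.8 CPM in WT and 162 ± 11.5 CPM in MUL1(-/-). The other markers, among them KRT18 and EPCAM, did not pass the test. Of 6 tested markers of blood, endothelium and fibroblasts, 4 rose and 1 fell, 83.3% called beside 37.6% of all genes (DCN rose by 1.30 and COL1A1 fell by 0.39 on the log2 scale, adjusted p = 8.40e-06 and 8.55e-03), with a sum of 20.6 to 25.3 and 18.3 to 21.7 CPM. CD3E was at or under 3 counts in every library. The part of such shifts in the level of EEF1A2 was not tested.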

How the data were processed

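RNA was purified with an RNeasy kit and sequenced from 6 libraries, 3 of HEK293 WT and 3 of HEK293 MUL1(-/-), grouped by the sample labels. For each library the authors deposited raw counts of reads in exon bins, not normalized. The submitters' processing notes name Trimmomatic 0.36, STAR 2.5.2b and GRCh38, and the counting program and annotation are not given in the sources used here. The authors' own comparison used DESeq2.

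Gene counts were the sums of 597973 bins in 54848 identifiers. The bins of 2031 identifiers that join overlapping genes were split among genes using GENCODE 29 exons on the same strand, and 0.0169% of counts stayed unassigned. A read counts in each bin it touches, so sums exceed reads. Taking only each gene's most counted bin, libraries held 25838347 to 28718913 in WT and 24285740 to 24618781 in MUL1(-/-). In 11 pairs of bins at the same place on opposite strands the median ratio of counts was 1, so the counting did not use strand. Replicates differed by 3.18 to 11.1 times the sampling noise (chi-square over degrees of freedom), and none was counted as a repeat. Limits at 3 counts cover counting error only.

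Counts were fitted in R 4.3.3 with edgeR 4.0.16 (TMM factors 0.946 to 1.03, filterByExpr, quasi-likelihood test, Benjamini-Hochberg adjustment), and tested on simulated data. Tables, sequences and figures were made with Python 3.11.15, pandas 2.3.3, numpy 2.4.6 and matplotlib 3.10.9. The plan had assumed counts per gene. Alternatives were DESeq2 1.42.0, RLE factors, library totals, no filter, at least 1 CPM in 3 samples, a block for the replicate number, leaving out each library, the most counted bin, bins no other gene touches, and |log2 fold change| above 1 as well. The matched exon, the bins of like length, the neighbours of genes other than EEF1A2 and the steps along chromosome 20 were added after seeing the data.

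The 8 genes and the lists were chosen with earlier results of these data known. Named besides the 8 are MUL1, related pseudogenes with the highest mean, in each list up to 4 called genes with the largest change and a mean of at least 1 CPM, the adjacent and called neighbours of EEF1A2, and the 5 genes nearest in pattern. EIF5A2, RPTOR, RPS6KB1, RPS6KB2, NEFL, DCX, PAX8, KRT18, EPCAM, SALL1 and CD3E were named after their values were seen. Of the modifiers of elongation factors, EEF1AKMT4 was not found. Protein sequences were not used here. One result under this naming rule is not reported here.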

Additional observations from a re-analysis of the deposited data

How the results depend on the processing

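EEF1A2 kept its direction under all 14 alternatives, from -2.70 to -2.62 in log2 fold change apart from -2.60 with library totals, which scale MUL1(-/-) libraries upward against TMM. Library totals also brought EEF1B2, EEF1D and EEF1E1 closer to 0 (-0.17, -0.20 and -0.14). EEF2 ranged from -0.09 to 0.15. Tested genes called numbered 9537 (4768 higher and 4769 lower) and 7472 to 10082 elsewhere. With library totals 60.8% of calls were higher (5955 against 3835), in place of 50.0%. With |log2 fold change| above 1 as well, 2052 genes and 0 of the 100 listed translation genes remained called, a consequence of the stricter threshold, and otherwise 40 to 54 listed genes were called, 47 in the reported fit. The share of EEF1A2 was 1.05% in WT and 0.208% in MUL1(-/-) from summed bins, but 3.04% and 0.613% per kb of exon length, 2.31% and 0.440% from the most counted bin, and 1.57% and 0.309% from the matched exon. Neighbours called ranged from 60.0% to 77.5% with 5 and 20 genes on each side. With the replicate number as a block, 9395 genes and 49 listed genes were called and EEF1A2 was at -2.67. Correlations of same-numbered samples were -0.0957, 0.167 and 0.103 over 15915 genes, so the numbers were not shown to pair the samples, and WT replicate 1 correlated best with MUL1(-/-) replicate 2.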
